A study of Mus musculus with 2 samples.

Results

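The S100 proteins described here are 9 mouse genes, S100a1, S100a4, S100a6, S100a8, S100a9, S100a10, S100a11, S100a13 and S100b. They were taken by name from the 20658 genes that had a named probe on the array. No filter on measured values was used, but earlier results of these arrays were known when the genes were picked. They had 11 probes in all, with a pair each for S100a1 and S100a4, and each probe was printed as 1 spot. Ovaries of 2-week-old mice, which are sexually immature, were divided into matching pieces and kept on culture inserts for 3 days, either with agonists or with antagonists of the tachykinin receptors (TKRs), the receptors through which substance P and the neurokinins act, to compare gene expression under stimulation and blockade of these receptors. The agonist group received [Sar9, Met(O2)11]-SP, GR-64349 and a succinylated substance P fragment, which act on TACR1, TACR2 and TACR3 in that order, and the antagonist group received a TACR1 antagonist with GR-94800 for TACR2 and SB218795 for TACR3, each ligand at 1 μM. RNA of each group was labelled with the dye Cy3 and hybridised to 1 single-colour oligonucleotide array, so that the groups were compared between arrays. The mouse strain and the number of ovaries behind each RNA are not given in the sources used here, and no untreated array was analysed here, so a difference does not show which of the groups had moved from the untreated state.

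S100 proteins are small proteins that bind calcium through a pair of EF-hands, helix-loop-helix motifs that change shape when the ion is bound and then expose a surface for target proteins. They mostly work as dimers inside the cell, where they attach to annexins, cytoskeletal proteins and enzymes, and several are also released and act on receptors such as RAGE and TLR4. Most S100 genes lie side by side in a cluster, and single members are widely used as markers of cell types, such as S100b for glia and S100a8 with S100a9 for neutrophils. The ovary is a mixture of oocytes, granulosa cells, stroma, vessels, surface epithelium and immune cells, and in RNA of whole tissue more cells of a type and more RNA per cell cannot be told apart.

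By the criterion of the image analysis software, 65.4% of 59305 non-control spots with the agonists and 61.6% with the antagonists were well above background, and 0 were saturated. Signals are given in the arbitrary units of the scanner, as deposited, with the software's own error for that spot, and, apart from sums over lists of markers, which the brightest probes dominate, levels of different probes were not put together. A log2 ratio is the scaled log2 signal with the agonists minus that with the antagonists, where each array was first reduced by its 75th percentile, 672 and 569 signal units for agonists and antagonists. The 15258 genes that were well above background on each array, called measured below, had a median log2 ratio of -0.10 and an SD of 0.48 across genes, and the central range from the 10th to the 90th percentile ran from -0.43 to 0.55. The arrays were not replicated, so no test was made, and the error given beside a log2 ratio is the software's spot error carried through both arrays, which does not include the spread between ovaries. For the S100 genes measured it was almost constant, 0.20 to 0.21, and with 1 spot per probe it is not a spread between repeated spots. The defining markers of the labelled tissue were present, since 8 of 8 oocyte genes, Gdf9, Bmp15 and Zp3 among them, and 8 of 8 granulosa cell genes, Foxl2 and Amh among them, were well above background on both arrays.

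Of the S100 genes, 7 were measured on both arrays, and each of the 7 had a higher signal with the agonists, before and after scaling. S100b, S100a4 and S100a6 differed most, S100a1 and S100a13 stood between, and S100a10 and S100a11 were nearly level once the arrays were scaled. A log2 ratio above 0 was found for 37.7% of all genes under the same scaling and for 71.7% with no scaling, while the count of S100 genes was 7 of 7 under both. The number at least 2-fold higher with the agonists was 2 of 7, S100b and S100a4, against 4.01% of all genes, and the number at least 2-fold lower was 0 of 7, against 0.577% of all genes. At 1.5-fold the count was 3 of 7, with S100a6 added, against 9.26% of all genes. The median log2 ratio of the 7 genes was 0.57, against -0.10 for all genes. Since the S100 genes were picked with earlier results of these arrays known, these shares describe the genes and are not a test of the family.

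**Figure D1:**
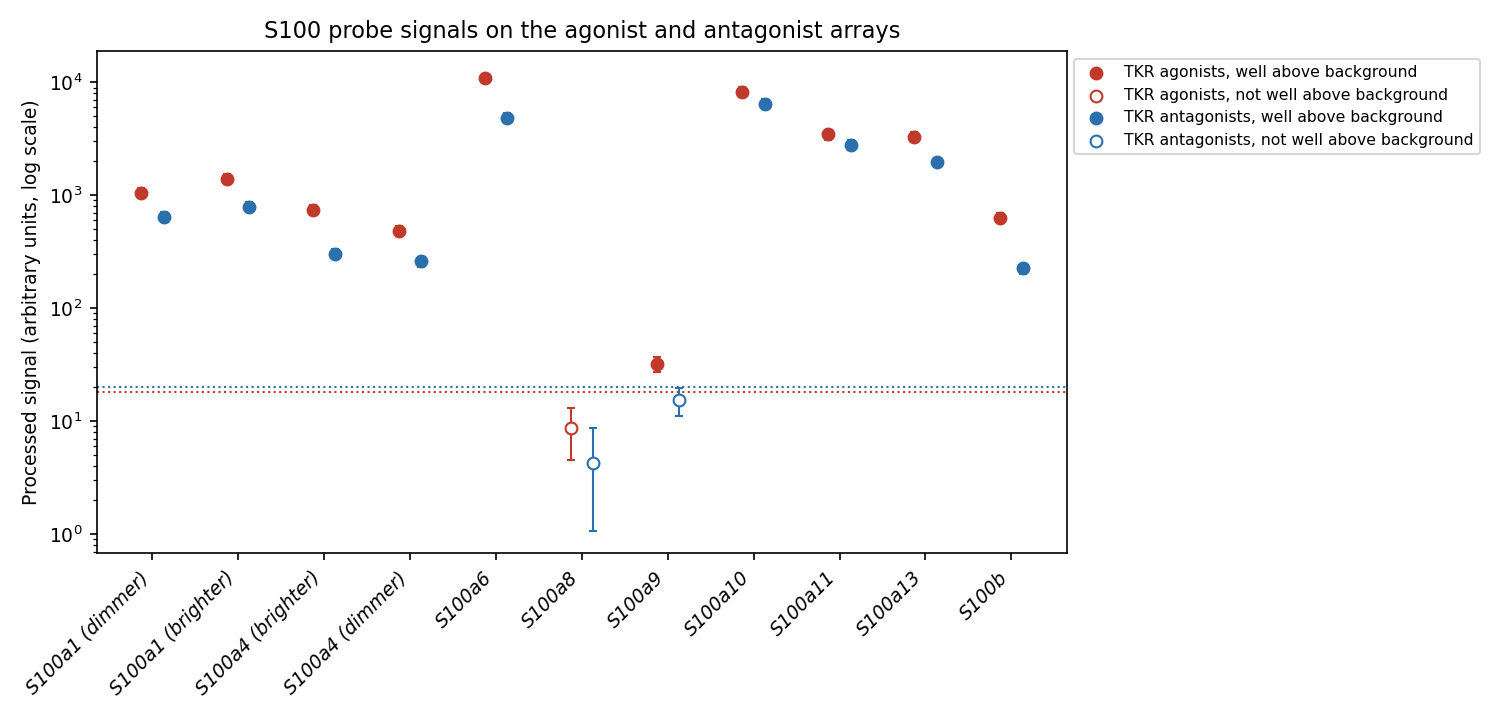
Processed signal (arbitrary units, log axis) of each of the 11 S100 probes on the agonist array (red) and the antagonist array (blue), with the software's spot error as bars, shortened at the lower end where they came near 0. Open points were not well above background and dotted lines mark the lowest signal that was, 18.1 for the agonists and 19.9 for the antagonists, so that the S100a8 points and the antagonist point of S100a9 lie below them, and in every pair the red point is above the blue one.

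S100b is the member best known from glia and Schwann cells, and it is also made by adipocytes. Its signal was 631 ± 63.2 (software spot error) under agonists against 225 ± 23.0 under antagonists. The agonist value lay far above the antagonist value, the widest gap among the 9 genes on the log2 scale, with a log2 ratio of 1.25 ± 0.21 or 2.37-fold. Of all genes measured on both arrays, 2.59% had a log2 ratio at least as high. With no scaling the fold was 2.80.

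S100a4, also called fibroblast-specific protein, binds the heavy chain of non-muscle myosin and is found in fibroblasts and macrophages. Its brighter probe gave 741 ± 74.2 under agonists against 305 ± 30.9 under antagonists, a log2 ratio of 1.04 ± 0.21 or 2.05-fold, and 3.74% of all genes were at least as high. The dimmer probe gave 484 ± 48.6 and 260 ± 26.4, a log2 ratio of 0.66 ± 0.21 or 1.58-fold. Both probes were higher with the agonists, but their log2 ratios differed by 0.38, more than the error of 0.29 of that difference, and the dimmer probe by itself did not reach 2-fold.

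S100a6, or calcyclin, is expressed in many fibroblasts and epithelia and binds the calcyclin-binding protein. Its signal was 10885 ± 1088 under agonists against 4844 ± 484 under antagonists. The log2 ratio was 0.93 ± 0.20 or 1.90-fold, just short of the 2-fold line and past it with no scaling, at 2.25-fold. A log2 ratio at least as high was found for 4.6% of all genes.

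S100a1 is the S100 protein of heart and skeletal muscle, where it acts on calcium release and uptake. Its brighter probe gave 1396 ± 140 under agonists against 795 ± 79.6 under antagonists, a log2 ratio of 0.57 ± 0.20 or 1.48-fold. The dimmer probe gave 1046 ± 105 and 649 ± 65.0, a log2 ratio of 0.45 ± 0.20 or 1.36-fold. These probes differed by 0.12, within the error of 0.29, so the pair gave the same picture, unlike the pair for S100a4. S100a13, which takes part in the release of FGF1 from cells, had a signal of 3314 ± 331 with the agonists and 1961 ± 196 with the antagonists, and its log2 ratio was 0.52 ± 0.20 or 1.43-fold. At least as high were 9.5% of all genes for S100a1 and 10.6% for S100a13, so both stood near the 90th percentile of the genes.

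S100a10 and S100a11 are the members most closely tied to annexins. S100a10, or p11, has lost the ability to bind calcium and forms a complex with annexin A2 at the cell membrane. Its signal was 8229 ± 823 under agonists against 6487 ± 649 under antagonists, a log2 ratio of 0.10 ± 0.20 or 1.07-fold. S100a11, which binds annexin A1, gave 3468 ± 347 and 2789 ± 279, a log2 ratio of 0.07 ± 0.20 or 1.05-fold. Both log2 ratios were smaller than the error of a single pair of spots, and 28.2% and 30.6% of all genes had a log2 ratio at least as high. With no scaling the folds were 1.27 and 1.24, as the log2 ratio of every gene is then 0.24 higher.

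S100a8 and S100a9 form calprotectin, the heterodimer that neutrophils and monocytes carry in large amounts and release at sites of inflammation. S100a9 gave 31.9 ± 4.82 with the agonists, where it was well above background, and 15.4 ± 4.31 with the antagonists, where it was not. Its ratio therefore has only a bound: taken against the lowest signal that was well above background on the antagonist array, S100a9 was higher under agonists by at least 1.35-fold. This bound holds for the software's background correction, and under the normexp correction the log2 ratio of S100a9 was 0.08. S100a8 gave 8.78 ± 4.21 and 4.30 ± 4.33 and was not well above background on either array, so no fold is given for it. Detection on the agonist array alone was found for 1 of the 9 S100 genes and for 4.09% of all genes. At face value, with dim probes included, 9 of 9 S100 genes were above 0, against 38.3% of all genes, but the face value of S100a8, 0.79, had an error of 1.61 and took the opposite sign, -0.17, under the normexp background correction.

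**Figure D2:**
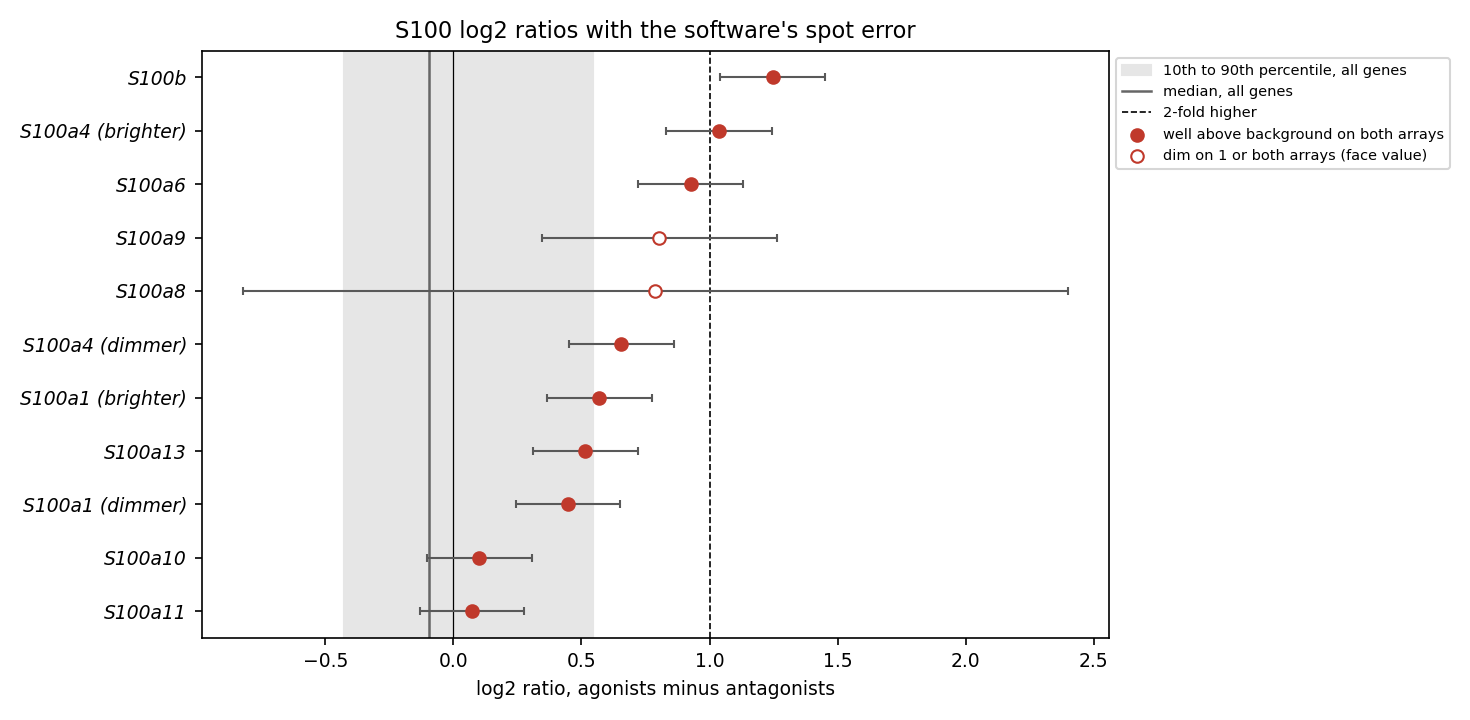
Log2 ratio, agonists minus antagonists, of each S100 probe, with bars for the software's spot error, beside the median (grey line) and the 10th to 90th percentile range (grey band) of all genes measured on both arrays. S100b and the brighter S100a4 probe lie past the dashed 2-fold line, S100a10 and S100a11 lie at 0.10 and 0.07 inside the band, and the open points of S100a8 and S100a9 are face values of dim probes with errors of 1.61 and 0.46.

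Ordered by the log2 ratio, the 7 measured genes were split into 3 steps where genes next to each other differed by more than the spot error. S100b, S100a4 and S100a6 formed the upper step, with neighbours that differed by 0.21 and 0.11, both within the error of 0.29. The ends of this step, S100b at 1.25 and S100a6 at 0.93, lay further apart than that error, so the step was not level within it. S100a6 and S100a1 differed by 0.36 against an error of 0.29, S100a1 and S100a13 by 0.05, S100a13 and S100a10 by 0.41, and S100a10 and S100a11 by 0.03. From end to end the family spanned 1.17 on the log2 scale, between S100b and S100a11. With the dimmer probe in its place, S100a4 would stand at 0.66, between S100a6 and S100a1 and 0.27 and 0.09 from them, both within the error of 0.29. The edge between the upper and the middle step therefore rests on the brighter probe of S100a4.

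**Figure D3:**
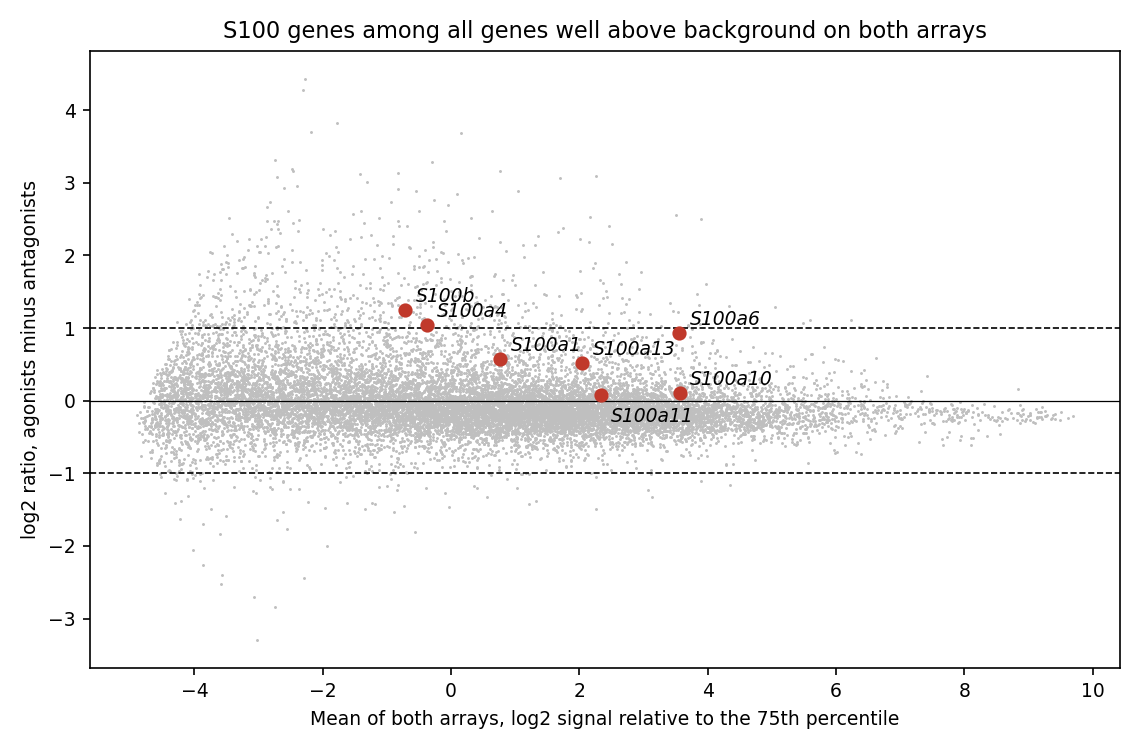
Log2 ratio, agonists minus antagonists, against the mean log2 signal of both arrays relative to the 75th percentile, for the 15258 genes measured on both arrays (grey) and the 7 S100 genes among them (red), with dashed lines at 2-fold. The upper 3 S100 genes lie at 0.93 to 1.25, above the bulk of genes of like signal, and S100a10 and S100a11 lie within it.

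Beside the levels, the promoters of the 3 genes with the highest log2 ratios and of S100a11, which had the lowest, are shown to compare what lies before their start sites. RefSeq (GRCm38.p6) had a promoter entry for 8 of the 9 genes, S100a10 being the one without. Each line gives the 250 bases before the start, 5′ to 3′ on the strand of the gene, which is the plus strand for all 4. Capitals mark matches to the AP-1 motif TGANTCA. The windows are chr10:76253586-76253835 for S100b, chr3:90603520-90603769 for S100a4, chr3:90612644-90612893 for S100a6 and chr3:93520246-93520495 for S100a11.
S100b: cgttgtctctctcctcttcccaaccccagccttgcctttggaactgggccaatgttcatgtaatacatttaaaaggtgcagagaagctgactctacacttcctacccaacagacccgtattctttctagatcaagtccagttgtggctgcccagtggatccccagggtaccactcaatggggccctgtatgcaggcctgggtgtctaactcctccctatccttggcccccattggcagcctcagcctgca
S100a4: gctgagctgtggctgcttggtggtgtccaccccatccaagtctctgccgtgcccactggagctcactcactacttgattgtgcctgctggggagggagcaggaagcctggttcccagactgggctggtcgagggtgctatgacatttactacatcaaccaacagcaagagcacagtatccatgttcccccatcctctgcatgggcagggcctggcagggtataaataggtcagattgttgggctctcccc
S100a6: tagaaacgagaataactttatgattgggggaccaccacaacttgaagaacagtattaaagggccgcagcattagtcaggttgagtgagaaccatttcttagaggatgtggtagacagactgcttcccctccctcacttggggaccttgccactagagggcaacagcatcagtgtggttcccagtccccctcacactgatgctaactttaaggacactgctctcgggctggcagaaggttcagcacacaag
S100a11: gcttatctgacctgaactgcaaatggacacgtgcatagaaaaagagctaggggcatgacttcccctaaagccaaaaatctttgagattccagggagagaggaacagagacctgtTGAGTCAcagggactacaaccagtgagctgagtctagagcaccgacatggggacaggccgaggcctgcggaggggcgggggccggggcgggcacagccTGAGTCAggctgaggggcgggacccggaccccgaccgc

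The G and C content of these windows was 53.6% for S100b and 57.2% for S100a4, with S100a6 below and S100a11 above both. Motifs were searched on both strands. The windows of S100a1 and S100a13 overlap, and that of S100a13 lies within the gene itself, so the 8 windows searched are not all separate upstream stretches. The AP-1 motif was present in 1 of the 8 S100 windows, that of S100a11, at 136 and 38 bases before the start, and in 6.75% of all 32851 promoters of the table. A C/EBP motif, TTNNGNAA, was present in 2 of 8, once for S100a8 and at 2 places for S100a9, and in 36.8% of all promoters. A GAS motif, TTCNNNGAA, to which STAT proteins bind, was present in 0 of 8 and in 7.02% of all promoters. None of these motifs was found for S100b, S100a4 or S100a6, and a match or its absence in a window of this size is a description of the letters alone.

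The S100a genes lie on chromosome 3 and S100b on chromosome 10, so the highest log2 ratio among the 9 belonged to the one gene that is not on chromosome 3. Along chromosome 3, S100a1 and S100a13 are adjacent on opposite strands and overlap in the RefSeq table, and their log2 ratios were 0.57 and 0.52. S100a4 and S100a6 follow, separated by S100a5 alone, with 1.04 and 0.93, whereas S100a5 between them had -0.18 (116 signal units with the agonists and 111 with the antagonists), which is above 0 with no scaling. S100a8 and S100a9 come next, with no gene between them in the table, and S100a11 and S100a10 lie 83 genes further on, at 0.07 and 0.10. Within each of the pairs measured on both arrays the difference was smaller than the spot error of 0.29. Of the other genes between the ends of this stretch, S100 genes left out, 49 had a probe and 13 were measured on both arrays, with a median log2 ratio of 0.05 that was -0.0010 with scaling on the median, -0.04 under the normexp background correction and -0.24 with dim probes included. Of these 13, Tchhl1 alone was past 2-fold, against 4.01% of all genes, and 33 of the 49 were dim on both arrays. Another 3 of the 49 were detected with the agonists alone, against 4.09% of all genes with a probe. Among these 3 were the cornified envelope genes Sprr4 and Sprr2f, at least 6.77-fold and 6.23-fold higher on 1 spot each.

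Of 8 other S100 genes listed for comparison, 6 were measured on both arrays, with a median log2 ratio of 0.16, which turned to -0.11 under the normexp background correction. S100a2 was not in that list and was added after its values, 107 under agonists against 99.9 under antagonists, were seen. Its log2 ratio was -0.14, which is above 0 with no scaling, and with it the median of 7 genes was 0.09. S100g, or calbindin-D9k, a vitamin D and estrogen responsive calcium buffer of gut and uterus, had a higher log2 ratio than any of the 9 genes described above, 2.34 or 5.07-fold, at signals of 1432 under agonists against 239 under antagonists. Its second probe gave 2.18. S100z had 0.73 at low signals of 63.8 and 32.5, S100a3 had 0.22 and S100a14 had 0.09. S100a16 was not settled, since its brighter probe gave -0.45 and its other probe 0.60. S100a7a and S100a7l2 were dim on both arrays. Of the S100-fused genes, large proteins of skin that begin with an S100 domain, 3 of 6 were measured, with a median of 0.62. That median was 0.22 under the normexp background correction. Tchhl1 was the highest at 1.06, at low signals of 76.1 under agonists against 30.9 under antagonists.

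Among the proteins that S100 proteins bind, 15 of 17 genes were measured on both arrays, with a median log2 ratio of 0.20. Of these, 10 were above 0, against 37.7% of all genes, 5 below it and 1 at least 2-fold higher, against 4.01% of all genes. The highest was Plaur, the urokinase receptor of the plasminogen system in which S100a10 acts, at signals of 987 under agonists against 387 under antagonists, a log2 ratio of 1.11. Anxa1, the partner of S100a11, gave 12051 and 5528, a log2 ratio of 0.88, while S100a11 itself stood at 0.07. Anxa2, the partner of S100a10, gave 60151 and 44186, a log2 ratio of 0.20 beside 0.10 for S100a10. Fgf1, the cargo of S100a13, had 0.62 beside 0.52 for S100a13, Myh9, the myosin bound by S100a4, had 0.29 beside 1.04 or 0.66, and Cacybp and Sugt1, bound by S100a6, had -0.18 and -0.25 beside 0.93. Ahnak was the lowest at -0.42, with other probes from -0.13 to 0.43, and Plg and Il1a were dim on both arrays.

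Of the receptors for released S100 proteins and their signalling partners, 8 of 10 were measured on both arrays, with a median log2 ratio of 0.38. That median was 0.19 with dim genes at their bound and 0.06 with dim probes included. Of the 8, 0 were at least 2-fold higher or lower, against 4.01% and 0.577% of all genes. Tlr4, the receptor of calprotectin, had signals of 267 under agonists against 150 under antagonists, a log2 ratio of 0.59, and its co-receptor Ly96 had 0.58. Alcam was the highest at 0.66 and Bsg the lowest at -0.24, and the probes of Mcam, at -0.17 and 0.83, disagreed in sign. Ager, which encodes RAGE, the receptor of S100b, went the other way from its ligand, at a signal of 15.9 under agonists, where it was dim, against 41.2 under antagonists, a bound of at least 2.69-fold lower with the agonists that rests on 1 spot. Other EF-hand proteins did not share the level of the S100 genes: 11 of 15 were measured, and the median was -0.13, or 0.11 with no scaling. Of the 11, 3 were above 0, against 37.7% of all genes, and 8 below it. Calm2 and Calm3, which encode calmodulin, had -0.38 and -0.26. Lcp1, a plastin of white blood cells, was the one EF-hand gene measured on both arrays past 2-fold, at 1.35, and Tnnc1, the troponin C of heart and slow muscle, was at least 4.58-fold higher and dim with the antagonists.

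**Figure D4:**
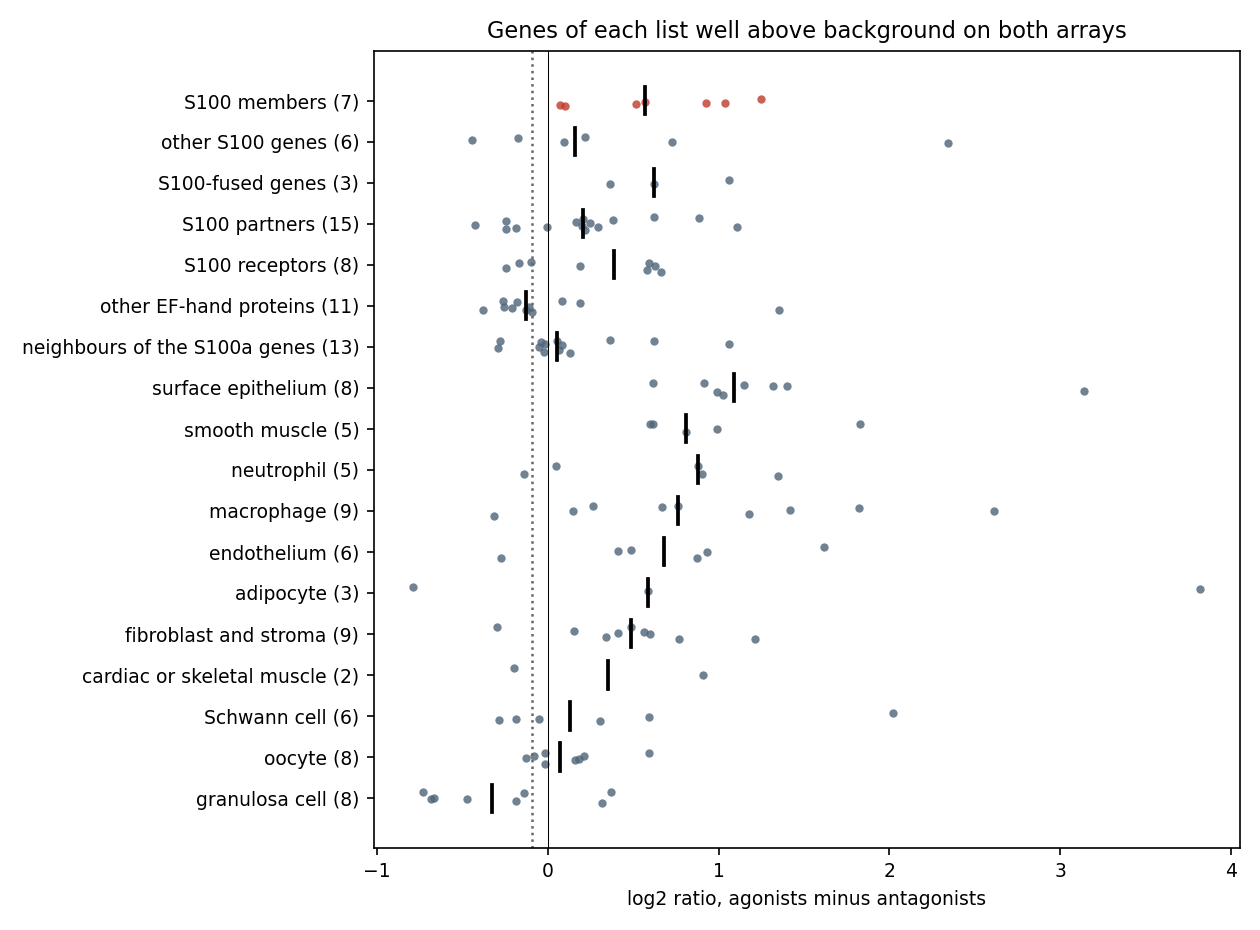
Log2 ratio, agonists minus antagonists, of every gene measured on both arrays in the S100 set (red) and in each comparison list (grey points), with the list's median as a black bar, the number of genes in brackets, 0 as a solid line and the median of all genes as a dotted line. The S100 median is 0.57, the surface epithelium median 1.09 and the granulosa cell median -0.33, and the medians of the other S100 genes, the other EF-hand proteins, the Schwann cell genes and the neighbours changed sign under 1 or more of the other settings tried.

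Markers of several cell types that carry S100 proteins differed between the arrays in the same direction as the S100 genes, and their part in the S100 values was not tested. Among all genes, 37.7% were above 0 and 4.01% at least 2-fold higher, for comparison with the counts of each list. For S100b, Schwann cell genes were measured for 6 of 8, with a summed signal of 4998 with the agonists and 2915 with the antagonists, 3 above and 3 below 0 and a median of 0.13 that turned to -0.12 with dim probes included and to -0.14 under the normexp correction. The defining gene Sox10 had -0.05, Mbp had 0.59 (0.12 by its other probe) and Gfap 0.31, and Foxd3 and Cdh19 were dim on both arrays. Adipocyte genes were measured for 3 of 6, with summed signals of 881 and 171. Fabp4, which endothelium and macrophages also express, had 739 and 44.2, a log2 ratio of 3.82, whereas Plin1 had 0.59, Retn -0.79, and the defining genes Adipoq and Lep were dim on both arrays.

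For S100a4 and S100a6, 9 of 9 genes of fibroblasts and stroma were measured, 8 of them above 0, with summed signals of 338689 and 227681 and a median of 0.49. Fn1, a matrix protein, was the highest at 1.21, Vim had 0.56, Col1a1 0.49 and Lum -0.30. Macrophage genes were measured for 9 of the 9 with a probe, with summed signals of 16077 and 12214 and a median of 0.76. Of the 9, 8 were above 0 and 4 at least 2-fold higher, against 37.7% and 4.01% of all genes. Cx3cr1 had 2.61, Mrc1 1.82, Adgre1 1.42 (0.72 by its other probe) and C1qa 1.18, while Csf1r had 0.15 and Itgam -0.31. The other probes ran from -0.09 to 0.04 for Csf1r and from -0.39 to 0.64 for Itgam, so neither gene had a settled sign. Of the lists examined, the surface epithelium had the highest median, 1.09, with 8 of 8 genes above 0, 5 of them at least 2-fold higher, and summed signals of 26213 and 10058. Lgals7 had 3.14, Krt19 1.40, Upk1b 1.32 and Krt7 1.15, and the lowest of the 8, Upk3b, had 0.62. S100a10 and S100a11, which epithelia and stroma also express, had 0.10 and 0.07.

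For S100a8 and S100a9, 5 of the 12 neutrophil genes with a probe were measured on both arrays, with a median of 0.88 that was 0.29 under the normexp correction and 0.58 with dim genes at their bound, and 4 were dim on both, Ngp, Cxcr2, Retnlg and Mmp9. Of the 5, 4 were above 0, against 37.7% of all genes, and 1 was below. Lcn2, which epithelia also make, had 503 and 167, a log2 ratio of 1.35, whereas Elane had 4613 and 3781, a log2 ratio of 0.05. Mpo, Ltf and Mmp8 were detected with the agonists alone, at least 1.25-fold, 1.78-fold and 1.11-fold higher. Detection with the agonists alone was found for 4.09% of all genes. The agonist signals of these 3 genes, 29.5, 42.0 and 26.2 on 1 spot each, were near the lowest signal well above background, 18.1. The summed signals of 84394 and 77628 include Csf3r, with 78901 and 73526 and a log2 ratio of -0.14, which is above 0 with no scaling. For S100a1, cardiac or skeletal muscle genes were measured for 2 of 5, with summed signals of 226 and 139, Myh6 at 0.91 and Myl2 at -0.20. Ckm and Actn2 were dim on both arrays, and Ttn was detected with the agonists alone, at least 1.32-fold higher. Smooth muscle had a median of 0.81 over 5 of 6 genes, with Actg2 the highest at 1.83, and endothelium 0.68 over 6 of 7, with Tie1 the highest at 1.62 and Kdr the lowest at -0.27, though the other probe of Kdr gave 0.38. The oocyte genes had a median of 0.07 and the granulosa cell genes one of -0.33, with 2 above 0, Cyp19a1 at 0.37 and Foxl2 at 0.32, and 6 below, Fshr the lowest at -0.73. The other probe of Foxl2 gave -0.37, so its probes disagreed in sign.

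**Figure D5:**
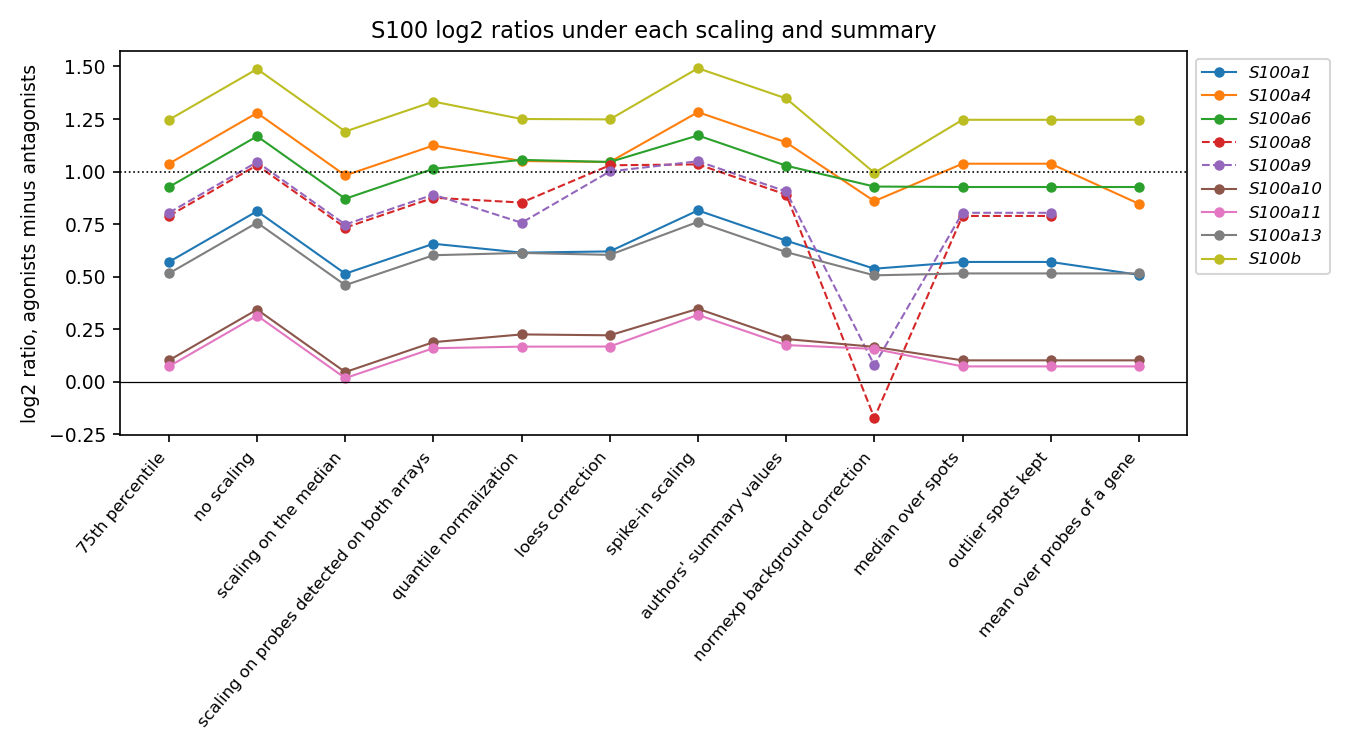
Log2 ratio, agonists minus antagonists, of each S100 gene under the scaling on the 75th percentile (first position) and under 11 other scalings and summaries, with dashed lines for the dim genes S100a8 and S100a9, the dotted line at 2-fold and a line per gene that links values without implying an order of settings. The 7 genes measured on both arrays stay above 0 at every position, with S100a10 and S100a11 between 0.02 and 0.35, and S100a8 reaches -0.17 under the normexp background correction.

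Under all of these scalings and summaries the 7 measured genes kept a log2 ratio above 0. Taken relative to the median of all genes under the same setting, S100b lay 1.09 to 1.34 above it, S100a4 0.94 to 1.13, S100a6 at least 1.01, S100a1 0.60 to 0.67, S100a13 0.60 to 0.66, S100a10 0.19 to 0.27 and S100a11 0.16 to 0.26. S100a4 fell below 2-fold when arrays were scaled on the median, 0.98, with the normexp correction, 0.86, and as the mean of its probes, 0.85. S100b fell below it with the normexp correction alone, at 0.99. S100a6 was past 2-fold under 6 of the 11, at 1.17 with no scaling, and at 0.87 with scaling on the median.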

How the data were processed

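Per the labels, total RNA of cultured mouse ovaries was hybridised to Agilent single-colour arrays, 1 for TKR agonists and 1 for TKR antagonists, and the groups were taken from the sample labels. The authors deposited, per the file headers, the intensity of each spot after background correction by Agilent Feature Extraction 10.10.1.1, with no scaling between arrays, and a summary table of intensities that equals it multiplied by an array-wide factor (1.99 under agonists, 2.19 under antagonists). Both arrays lay on the same slide.

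After removal of control and outlier spots, log2 values of the processed signal were scaled by subtracting the 75th percentile of each array. Averaging the spots of each probe gave 55674 probes, and a probe counted as well above background if the software had marked more than 50% of its spots so. The files used here hold accessions and no gene names, so 27230 probes were named through RefSeq accessions in the table of GRCm38.p6, used for names, order on the chromosome and promoters. A gene was represented by its probe with the highest mean signal. A gene detected on 1 array only was given a bound, the bright value over the higher of its dim value and the lowest signal well above background where it was dim. No test was made, since each group had 1 array, and the number of arrays limits the precision. Among 284 probes printed at 10 spots, the median SD of the log2 ratio between spots was 0.07, which is error within an array.

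The text names every S100 gene and, of the other lists, genes at least 2-fold different, the highest and lowest, and genes a sentence on that list needs. The S100 genes and the lists were chosen with earlier results of these data known. Alternatives were other scalings (none, median, probes detected on both arrays, quantile, loess with span 0.3, E1A spike-in probes, the authors' summary values), normexp background correction with offset 50 on the median spot signal, medians over spots, outlier spots kept, means over a gene's probes, dim genes kept or set to their bound, and thresholds of 1.5-fold and 4-fold. Python 3.11.15, numpy 2.4.6, pandas 2.3.3, R 4.3.3 and limma 3.58.1 were used, and the calculation was tested on simulated data. Protein sequences were planned and are not used here. Values of some genes of the comparison lists are not reported here.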

Additional observations from a re-analysis of the deposited data

How the results depend on the processing

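With 1 array per group, the values of the S100 genes rest on 1 spot per probe and no difference between ovaries can be estimated. The median log2 ratio of the 7 measured S100 genes, 0.57, was 0.81 on unscaled arrays, 0.82 after scaling on the spike-in probes and 0.79 when dim genes entered at face value, and ranged from 0.51 to 0.82 over all settings. The number at least 2-fold higher, 2, was 1 after scaling on the median or as the mean over probes, and 0 by the normexp correction or at a 4-fold threshold. It was 2 or 3 in all others, and the number at least 2-fold lower was 0 in each. The median of all genes, -0.10, turned to 0.15 on unscaled arrays, 0.15 after spike-in scaling and 0.0059 by the authors' summary values. In place of 612 genes at least 2-fold higher and 88 lower, unscaled arrays gave 992 and 39, spike-in scaling 997 and 39, the authors' values 746 and 58, normexp 322 and 33, scaling on probes detected on both arrays 725 and 63, face values of dim genes 1349 and 554, dim genes at their bound 734 and 139, a 1.5-fold threshold 1413 and 653, and a 4-fold threshold 104 and 9. Of 97 values of single S100 genes under other settings, 81 moved by less than their spot error and 16 by more, and 1 had the opposite sign, S100a8 by normexp. Signals near background limit S100a8 and S100a9, whose ratios ranged from -0.17 to 1.03 and from 0.08 to 1.05. The causes were not tested. No paired analysis was possible because there was 1 array per group and no test.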
